A study of Drosophila melanogaster with 14 samples.

Results

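The no-KD pool is the insertion list of the line before any depletion of Piwi, and it holds 4356 of the 20426 insertions that were called in the series. All of its insertions were taken, and each was placed by its TE family, its chromosome and the number of reads that support it. The list was divided into bands of 2, 3 to 9, 10 to 19 and 20 or more reads, and insertions of the last band are called well supported here.

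All 14 libraries came from 1 Drosophila line, a w stock with tj-GAL4, tubP-GAL80[ts] and sh-piwi. In it tj-GAL4, active in the somatic follicle cells of the ovary, drives an RNA hairpin that depletes Piwi, and a heat-sensitive GAL80 blocks this at low temperature. The no-KD pool was DNA of 3 to 17 h embryos from flies kept at 20°C. It was set against a piwi-sKD pool and 12 single piwi-sKD flies, whose labels give 25°C for 5 days. Pools were read at 100 nt and flies at 125 nt. The labels call the piwi-sKD pool adult flies whereas the methods call it embryos. By the methods, that pool and the single flies are both of a generation after the flies whose Piwi was depleted, so the shift applies to their ancestors. The number of embryos in a pool was not given in the sources used here.

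A transposable element (TE) is a stretch of DNA that can copy or move itself within the genome. LTR retrotransposons, the class that holds the endogenous retroviruses (ERVs) gypsy, ZAM and Dm412 (given by its number alone in the list), copy themselves through RNA and carry a long repeat at each end. Non-LTR retrotransposons, or LINEs, also use RNA but prime reverse transcription at the target, and DNA transposons such as pogo, hobo and P-element move by excision. Piwi and its piRNAs silence TEs in the ovary, and in follicle cells this restrains ERVs that could otherwise reach the germline. An insertion that a stock has long carried can be shared by many of its chromosomes, whereas a rare one is held by few, so in a pool the reads at an insertion report how common it is only together with the number of copies of its target and how well reads map there.

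The no-KD pool was made mostly of weakly supported insertions. It had 1438 insertions with 2 reads, or 33.0% (Wilson 95% interval 31.6 to 34.4), 1858 with 3 to 9 reads (42.7%), 613 with 10 to 19 reads (14.1%) and 447 with 20 or more (10.3%, 9.40 to 11.2). The median was 4 reads and the highest was 1054. The well supported insertions carried 47.2% of the 38580 supporting reads, and those with 2 reads carried 7.45%. Support fell off without a gap at the limit of the last band, since 37 insertions had 19 reads and 34 had 20. For comparison, 5096 insertions with 47733 reads were listed in the piwi-sKD pool, and a fly had 537 to 1307 insertions with 1774 to 5901 reads. The no-KD pool is a single library without replicates, so its shares carry no test, and intervals cover counting error only. By the paper's methods, a call found in a single library can also be a false positive from chimeric TE-genome fragments made in library preparation. Calls of every band are named insertions here, and how many are false positives was not tested.

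The well supported shares of the 3 classes had overlapping intervals, while their shares of insertions with 2 reads did not all overlap. Well supported insertions made up 10.5% of 1694 LTR insertions (Wilson 95% interval 9.14 to 12.1), 9.69% of 1621 non-LTR insertions (8.34 to 11.2) and 10.8% of 1041 DNA insertions (9.02 to 12.8). Insertions with 2 reads made up 30.1% of LTR (28.0 to 32.3), 35.8% of non-LTR (33.5 to 38.2) and 33.3% of DNA insertions (30.5 to 36.3). When insertions of 1 family within 500 bp were merged into loci, 21.8% of LTR loci (19.5 to 24.2), 16.5% of non-LTR loci (14.5 to 18.7) and 19.2% of DNA loci (16.5 to 22.3) were well supported, so that the LTR and non-LTR intervals no longer overlapped. Groups within a class spread more widely. The BEL-type LTR elements, to which roo belongs, had 15.9% well supported (12.9 to 19.5). The share was 8.50% for the gypsy-type elements (7.02 to 10.3) and 7.14% for the copia-type elements (3.09 to 15.7). Among non-LTR elements, the R1 and R2 group had 14.2% and the telomeric retrotransposons, which maintain Drosophila chromosome ends, also had 14.2%, whereas the jockey-type LINEs had 8.65% and the other LINEs 6.25%. Among DNA transposons hobo had 15.3% and the Tc1, mariner and pogo type elements 13.8%, against 4.64% for the Transib-type elements such as hopper. Single families weighed heavily in several of these shares. Of the well supported insertions, roo held 62 of the 75 of BEL type, and pogo held 42 of the 46 in its group. In the R1 and R2 group, R1A1-element held 22 and R2-element 10 of the 45.

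Well supported insertions were unevenly spread over families, as was the list as a whole. The list named 121 families, of which 76 had at least 1 well supported insertion and 45 had none. Of the 121, 50 had under 15 insertions, so a family can have none by its small size alone. Together 9 families held at least 50% of the well supported insertions. The 12 families with most insertions were roo, 1360, BS, pogo, F-element, jockey, Cr1a, Doc, hopper, R1A1-element, Rt1a and hobo. They held 1895 insertions, or 43.5% of the list, and 228 of the well supported ones, or 51.0%. Number and support did not always go together among them. Spearman's rho of number and well supported share was 0.329 over the 71 families with at least 15 insertions. The LTR element roo had the most insertions, 322, and 62 of them (19.3%) were well supported. The DNA transposon 1360 came next with 275, of which 17 (6.18%) were well supported, and the LINE BS had 204, of which 4 (1.96%) were.

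Among the 71 families with at least 15 insertions, 6 families (8.45%) had a well supported share of at least 2 times that of the whole list. R2-element had 10 of 33 (30.3%, Wilson 95% interval 17.4 to 47.3), opus 12 of 42 (28.6%, 17.2 to 43.6) and Dm412 16 of 63 (25.4%, 16.3 to 37.3). The share was 31 of 123 in jockey (25.2%, 18.4 to 33.5), 22 of 100 in R1A1-element (22%, 15 to 31.1) and 42 of 202 in pogo (20.8%, 15.8 to 26.9). All 6 intervals lay above the 10.3% of the whole list. The LTR elements 3S18, with 4 of 20 (20.0%), and roo completed the 8 highest. Their lower bands differed too. Insertions with 2 reads made up 4.76% of opus, 8.13% of jockey and 14.3% of Dm412, against 33.0% of the list.

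At the other end, 30 of the 71 families (42.3%) had at most 0.5 times the share of the list, 18 of them LTR, 8 non-LTR and 4 DNA. The intervals of 5 of these lay wholly below 10.3%. In 15 families no insertion reached 20 reads. The 8 of these with most insertions were baggins with 0 of 44, which allows a share of up to 6.82%, HeT-A with 0 of 38 (up to 7.89%), Doc3-element and Idefix with 0 of 30 each (up to 10%), HB with 0 of 27 (up to 11.1%), S-element and mdg1 with 0 of 25 each (up to 12%) and HMS-Beagle2 with 0 of 23 (up to 13.0%). For the last 4 of these the limit lies above the share of the list, and for Doc3-element and Idefix the upper Wilson bound of 11.4% does, so for these 6 a lower share was not detectable at this number of insertions.

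The families without well supported insertions were not alike in their weakest band. Insertions with 2 reads made up 65.2% of HMS-Beagle2, 60% of Idefix, 56.8% of baggins and 56.7% of Doc3-element, but 16.0% of the LTR element mdg1, whose insertions lay mostly between 3 and 9 reads and reached 14. Insertions with 2 reads also made up 64.7% of BS, 55.0% of the LINE Rt1a and 54.6% of the LINE Cr1a, 3 of the families with most insertions. In Tabor, a gypsy-type ERV that was named after its values were seen, 17 of 20 insertions had 2 reads. Over the 71 families the median well supported share was 6.67%, with quartiles of 3.11% and 12.5%.

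**Figure D1:**
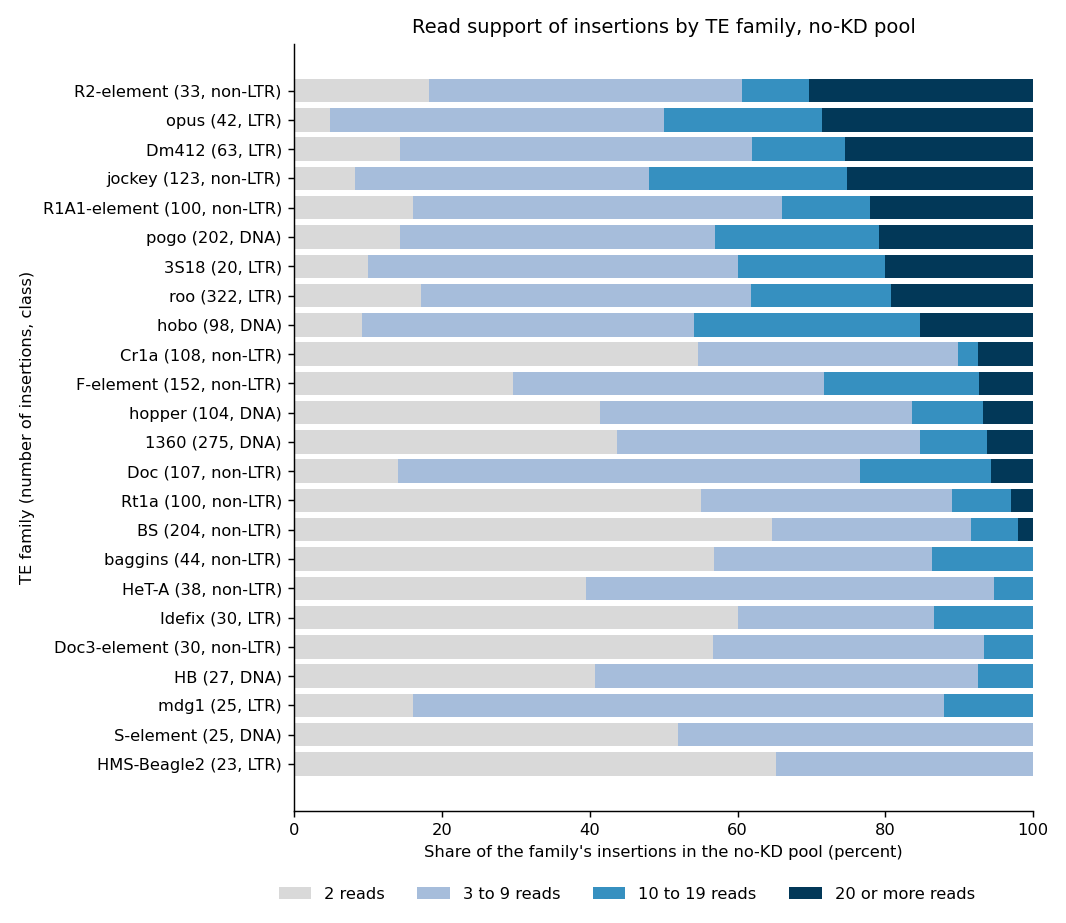
Share of each named family's no-KD insertions (x axis, percent) in 4 bands of supporting reads, for the 12 most numerous families and the 8 highest and 8 lowest families by well supported share (y axis, with the number of insertions and the class). The dark segment, 20 or more reads, runs from 30.3% in R2-element to 0 in the 8 lowest families, and the pale segment, 2 reads, covers 64.7% of BS.

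The ERVs ZAM, gtwin and gypsy, which the study followed, had few listed insertions. The list holds only insertions absent from the reference, so copies that the reference also has are not counted. ZAM had 7 insertions with 48 reads in all. Its supports were 29, 6, 4, 3, 2, 2 and 2 reads, so 1 insertion stood out, at 2R:19841940-19842048 outside any gene span. The same insertion had 29 reads in the piwi-sKD pool and 2 to 5 reads in the 3 flies that listed it within 20 bp. Within 500 bp, ZAM was listed in 4 flies with 2 to 7 reads. By the paper, a ZAM insertion at nearly the same coordinate, but printed on 2L, was fixed and found in every library. Whether it is the same insertion was not tested, and a fly that does not list an insertion can still carry it. The other 6 ZAM insertions were in no fly. Of these, that of 4 reads lay in the span of lovit and 1 of those with 2 reads in spok, a gene of ecdysone synthesis. The ERV gtwin had 4 insertions, with 26, 15, 5 and 2 reads, the best of them in atos at 2R:11639807-11639829, which had 8 reads in the piwi-sKD pool and was in no fly. The ERV gypsy had 6 insertions, with 24, 21, 12, 4, 3 and 2 reads. The highest lay in bun, a transcription factor gene, at 2L:12495319-12495398. It had 2 reads in the piwi-sKD pool and was found in 6 flies with 3 to 5 reads each. That of 21 reads lay on Y, had 34 reads in the piwi-sKD pool and was in no fly. The values of gtwin, gypsy and the other ZAM insertions use the 20 bp match, and wider windows are not given for them. Of all well supported insertions, 31.5% were in no fly at 20 bp and 9.84% at 500 bp. No loss or absence is therefore read from these sites.

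By contrast Dm412 had 63 insertions, of which 16 had 20 or more reads, and its highest, 54 reads in tn at 2R:19002967-19002990, was found in 8 flies. HMS-Beagle2 had 23 insertions with at most 6 reads, 0 of which were found in any fly and 2 of which were found in the piwi-sKD pool. In opus, the family with the fewest insertions of 2 reads among the 6 highest, 11 of 42 insertions were in no fly, and on average 30.8% ± 6.54 (SD, n = 12 flies) of its insertions were found in a fly. The same quantity was 21.4% ± 4.14 in Dm412, 23.3% ± 7.17 in jockey, 16.6% ± 3.92 in roo, 9.78% ± 2.83 in pogo and 2.08% ± 0.665 in BS. These shares use the 20 bp match, and wider windows were not run by family. Another insertion of the family lay within 500 bp for 96.5% of pogo insertions and 28.9% of BS insertions. The families are therefore not ordered by these shares.

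Many insertions of a family were listed side by side, so a listed insertion is not always a separate locus. Another insertion of the same family lay within 500 bp for 49.7% of the list, and this share was 31.4% for 2 reads, 57.6% for 3 to 9, 66.2% for 10 to 19 and 53.5% for 20 or more. Merging insertions of 1 family within 500 bp left 3078 loci, of which 71.2% held a single listed insertion and the fullest held 11. With reads summed over a locus, 589 loci (19.1%) had 20 or more reads, and 179 of these contained no listed insertion that reached 20 by itself.

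The share of the DNA transposon pogo changed most in this view, in percentage points over the 71 families. Its 202 listed insertions lay at 56 loci, 3.61 per locus, and 39 of the 56 loci (69.6%, Wilson 95% interval 56.7 to 80.1) were well supported. Other families shifted as well. By loci, jockey had 41 of 79 (51.9%), hobo 26 of 51 (51.0%), opus 14 of 29 (48.3%), Dm412 17 of 38 (44.7%), roo 85 of 201 (42.3%) and R1A1-element 17 of 56 (30.4%). BS had 165 loci, of which 11 (6.67%) were well supported, and 1360 had 223, of which 21 (9.42%) were. Of the 6 highest families by listed insertions, 5 were still at 2 times the share of the list by loci, among 10 of the 63 families with at least 15 loci, and R1A1-element was not.

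**Figure D2:**
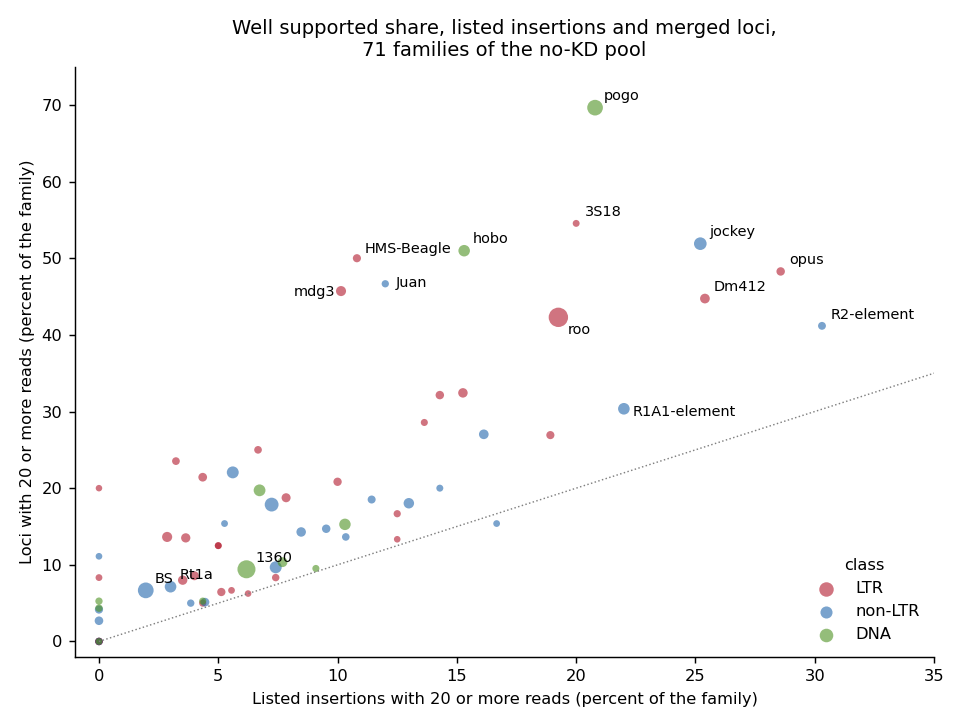
Percent of listed insertions with 20 or more reads (x axis) and percent of merged loci with 20 or more reads (y axis) for 71 families of the no-KD pool, coloured by class, with point size growing with the number of insertions. The dotted line marks equal shares, and pogo sits farthest above it at 20.8% of listed insertions and 69.6% of loci.

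Leaving out Y, the most read non-LTR insertions were R1 and R2 elements on proximal X, and the most read DNA insertions were P-elements. R1 and R2 are LINEs that insert into 28S ribosomal RNA genes, which lie as a tandem array on X and Y. The highest support in the pool, 1054 reads, was an R2-element at X:23239950 within the pseudogene 28SrRNA-Psi:CR40741, which had 1163 reads in the piwi-sKD pool and 8 to 10 reads in the 4 flies that had it. R1A1-element followed with 373 reads at X:23535287 and 355 reads at X:23535186, outside gene spans. The piwi-sKD pool listed neither within 20 bp, and 2 flies listed the first and 0 the second. Between them lay a further R1A1-element line with 341 reads, named after its values were seen, which had 1248 reads in the piwi-sKD pool and was found in 11 flies.

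Among LTR insertions the highest was Stalker3T with 162 reads at 3R:2271181, in Myo81F, with 227 reads in the piwi-sKD pool and 2 reads in each of 5 flies. Next came mdg3 with 101 reads at 2R:23730852-23730857, in the overlapping spans of Sesn and CG46429, found in 9 flies, and invader4 with 91 reads at 2L:21325252-21325265 outside gene spans, found in 4 flies. In the piwi-sKD pool, which held more reads in all, mdg3 had 129 reads and invader4 had 114.

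All 3 of the highest DNA insertions on X and the arms were P-elements, and the whole family was then described, after its values were seen. P-element had 14 listed insertions, below the number needed for ranking. Of these 10 had 20 or more reads (71.4%, Wilson 95% interval 45.4 to 88.3), 0 had 2 reads, which allows a share of up to 21.4%, and the median was 63.5 reads. They lay at 6 loci on 2L, 3L, 3R and X, all in the distal arms. Transgene vectors commonly carry P-element ends, and the line holds a GAL4 driver named for tj, the traffic jam gene of gonadal somatic cells. The 2L locus lay 53 to 327 bp before the start, in reference coordinates, of the span of tj (Dmel_CG10034, 2L:19464267-19467758). Its 4 listed insertions had 7, 141, 10 and 77 reads in order of position, and together 235 reads, against 307 in the piwi-sKD pool.

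The other loci had 42 to 315 reads. The 3R locus, in ncd, which encodes a kinesin-like motor, and the overlapping gene ca, had 315 reads, against 379 in the piwi-sKD pool. The 3L locus, at the start of the span of Mocs1, an enzyme gene of molybdenum cofactor synthesis, had 151 reads, against 172 in the piwi-sKD pool. On X, the locus in CG32816 had 138 reads against 158, that in kirre and CG32795 131 against 133, and that outside gene spans 42 against 45, each against the piwi-sKD pool. Each of the 6 loci was found in 10 to 12 flies within 500 bp. The 2L, 3R, CG32816 and kirre loci were found in all 12 flies, the 3L locus in 11 and the last X locus in 10. The piwi-sKD pool had more reads at each of the 6 loci and also more in all (47733, against 38580 in the no-KD pool). On the scaled support as deposited, whose factor matches the ratio of the paper's coverages, the no-KD pool was the higher at 5 of the 6. The higher reads of the piwi-sKD pool are thus not corrected for coverage. With 1 library per pool, no direction is read from these pairs. Which of the 6 are transgenes was not tested.

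**Figure D3:**
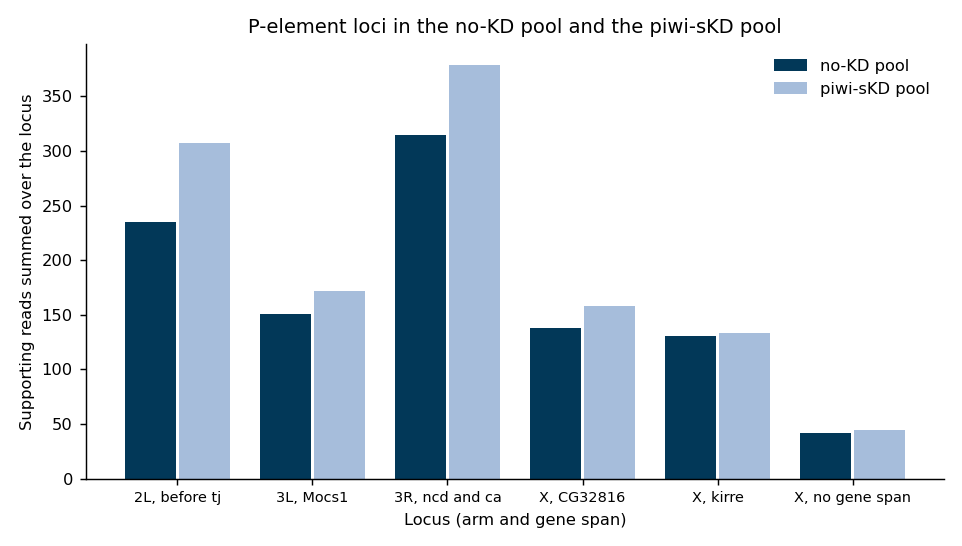
Supporting reads summed over each of the 6 P-element loci (x axis, arm and gene span) in the no-KD pool and in the piwi-sKD pool, 1 library each. The no-KD values run from 42 to 315 reads, and each piwi-sKD value is the higher of its pair in reads. The piwi-sKD pool held more reads in all, and the reads shown are not corrected for coverage. On the scaled support, which allows for coverage, the piwi-sKD value is the higher of 1 pair.

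Insertions were unevenly placed between the distal arms and their proximal parts near the centromere. Proximal parts, taken as 2L from 22 Mb, 2R to 5 Mb, 3L from 23 Mb, 3R to 4 Mb and X from 22 Mb, hold much of the pericentric heterochromatin. The distal arms had 2289 insertions, or 19.8 per Mb, and the proximal parts had 1568, or 92.4 per Mb. Insertions were better supported in the distal arms, where 308 (13.5%, Wilson 95% interval 12.1 to 14.9) had 20 or more reads and 23.8% had 2 reads, than in the proximal parts, where 103 (6.57%, 5.45 to 7.90) had 20 or more and 44.8% had 2. Per Mb, well supported insertions numbered 2.67 in the distal arms and 6.07 in the proximal parts, but the arms differed. They numbered 3.45 in distal and 2.82 in proximal 2L, 2.42 in distal and 0.6 in proximal 2R, 3.30 in distal and 5.59 in proximal 3L, 2.85 in distal and 8.25 in proximal 3R, and 1.2 in distal and 22.8 in proximal X.

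The order of the shares held in 4 of the 5 arms. The well supported share was 16.1% in distal and 4.12% in proximal 2L, 10.6% in distal and 0.952% in proximal 2R, 19.1% in distal and 6.14% in proximal 3L, and 17.5% in distal and 8.19% in proximal 3R. On X it turned round, with 5.41% of distal and 11.8% of proximal insertions. R1A1-element and R2-element, whose ribosomal targets lie in proximal X, made up 104 of the proximal insertions and 27 of the 35 well supported ones there. Without these 2 families, which were left out after the values were seen, the proximal X share was 4.15% (8 of 193). Its Wilson interval, 2.12 to 7.96, overlapped that of the distal 5.41%, 3.74 to 7.76. No order of the 2 parts of X is therefore read without these families. The contrast differed in size between classes, at 15.2% in distal and 3.62% in proximal parts for DNA, 13.6% in distal and 6.66% in proximal parts for LTR, and 11.8% in distal and 7.65% in proximal parts for non-LTR insertions.

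**Figure D4:**
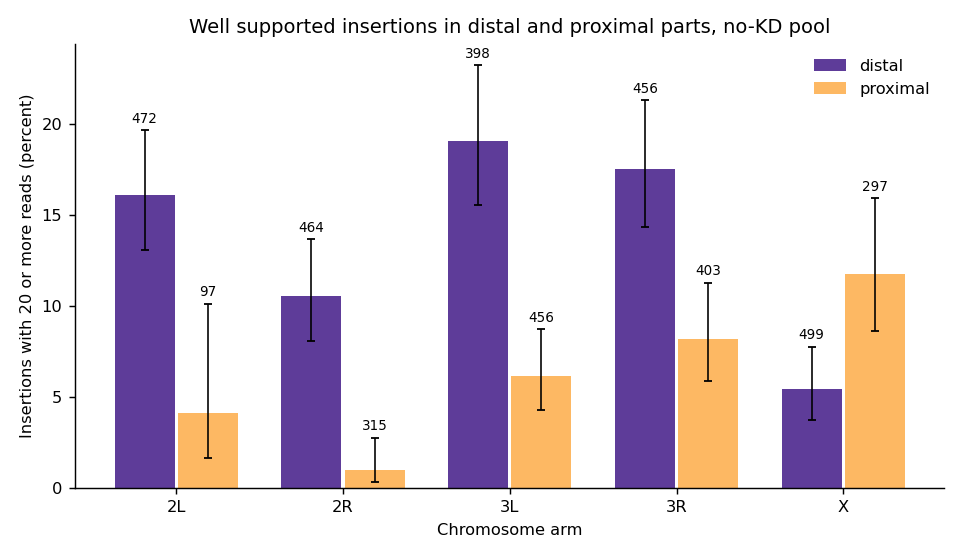
Percent of no-KD insertions with 20 or more reads (y axis) in the distal and proximal parts of each arm (x axis), with Wilson 95% intervals as bars and the number of insertions above each column. The distal column is the higher on 2L, 2R, 3L and 3R, and the lower on X (5.41% distal, 11.8% proximal).

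Families occupied these parts differently, and support did not follow from the part alone. Of the 6 families with the highest well supported shares, 4 were largely distal, with 191 distal and 3 proximal insertions for pogo, 122 distal and 1 proximal for jockey, 41 distal and 1 proximal for opus and 55 distal and 7 proximal for Dm412. The other 2 were largely proximal, with 1 distal and 31 proximal insertions for R2-element and 1 distal and 84 proximal for R1A1-element. Of the 8 named families without a well supported insertion, 4 had more proximal insertions, with 2 distal and 39 proximal for baggins, 1 distal and 28 proximal for Doc3-element, 8 distal and 20 proximal for Idefix and 3 distal and 12 proximal for HMS-Beagle2. The other 4 had more distal insertions, with 26 distal and 3 proximal for HeT-A, 19 distal and 2 proximal for mdg1, 18 distal and 5 proximal for S-element and 13 distal and 11 proximal for HB.

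The small chromosomes had profiles of their own. Chromosome 4 had 121 insertions, of which 57.9% were DNA transposons and 7.44% LTR elements, and 48.8% had 2 reads, the highest share of any chromosome. Its most numerous families were 1360 with 23 insertions, 0 of them well supported, and the telomeric element TAHRE with 15, of which 3 were. Y had 302 insertions with 8.61% well supported, and 78 of them were 1360, including the most read 1360 insertion, with 298 reads at Y:958806. That insertion had 364 reads in the piwi-sKD pool and was in no fly. On average 5.45% ± 2.57 (SD, n = 12) of the well supported Y insertions were found in a fly, against 28.6% ± 7.75 of those on X and 38.8% ± 7.63 of those on 2L. Each of the 12 flies listed insertions on Y, from 8 to 19 of them. The number of Y chromosomes in the pool or in each fly was not given, and its part in this was not tested.

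The list also held 76 insertions on the mitochondrial genome, which came from 8 families. BS had 28 there, or 13.7% of its insertions, Rt1a 17 (17.0%), hopper 11 (10.6%), HMS-Beagle2 6 (26.1%), Stalker2 6 (10.9%) and Tabor 5 (25.0%). Stalker2 was named after its values were seen. Of the 76 insertions, 2 were well supported, with 40 reads for BS and 25 for Rt1a, and 32 had 2 reads. None was found in any fly at the same place, and the flies listed 0 to 2 mitochondrial insertions each, 8 in all, whereas the piwi-sKD pool listed 73. BS without its mitochondrial insertions had 176, of which 124 (70.5%) had 2 reads and 167 were in no fly. How far the mitochondrial lines and the weak nuclear lines of these families share a source was not tested.

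Position relative to genes changed little with support. A gene span held 50.4% of insertions with 2 reads, 51.0% with 3 to 9, 56.5% with 10 to 19 and 56.9% (Wilson 95% interval 52.2 to 61.4) with 20 or more, leaving out the mitochondrial genome. The 253 well supported insertions inside spans touched 203 genes, 41 of them with at least 2. Myo81F, an unconventional myosin gene whose span covers almost 2 Mb of proximal 3R, had 21, followed by Pzl and sick with 5 each, and these 3 genes were named after their values were seen. The listed position became an interval more often with support, since start and end were the same base for 88.3% of insertions with 2 reads, 85.8% with 3 to 9, 67.7% with 10 to 19 and 55.5% with 20 or more.

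To ask whether pool support predicts that an insertion is listed in individuals, the no-KD insertions were looked up in the 12 single flies. These flies played no part in the bands. An insertion was found in a fly when that fly listed the same family within 20 bp. The share found increased with support in every fly. It was 1.41% ± 0.494 for 2 reads (SD, n = 12, lowest 0.626%, median 1.46%, highest 2.36%), 6.95% ± 2.02 for 3 to 9 reads (3.50%, 7.32% and 10.2%), 20.6% ± 5.07 for 10 to 19 reads (13.9%, 20.5% and 29.5%) and 31.9% ± 6.40 for 20 or more (19.9%, 33.2% and 41.8%). The lowest value of the last band was above the highest value of both bands below 10 reads.

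Well supported insertions were found more often than those with 2 reads by 30.4 percentage points, in 12 of 12 flies (exact paired permutation test over sign flips, two-sided, adjusted p = 0.000488, the smallest that 12 flies can give). The band of 3 to 9 reads exceeded that of 2 reads by 5.54 points, that of 10 to 19 exceeded 3 to 9 by 13.7 points, and that of 20 or more exceeded 10 to 19 by 11.2 points, each in 12 of 12 flies with the same exact adjusted p. The flies are descendants of 1 line and are compared with 1 pool, so these values hold for that pool.

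Even so, many insertions of the pool were found in no fly. This was so for 93.8% of those with 2 reads, 75.8% with 3 to 9, 43.4% with 10 to 19 and 31.5% (141 of 447) with 20 or more. A fly's list had 1774 to 5901 reads, against 38580 in the no-KD pool. An insertion found in no fly can therefore still be carried by flies. An insertion in all 12 flies was rare, at 0, 3, 7 and 10 insertions in bands of rising support. With a window of 500 bp, 44 of the 447 (9.84%) were in no fly. In the piwi-sKD pool, 20.2% (Wilson 95% interval 18.2 to 22.3) of insertions with 2 reads were found, then 51.5% with 3 to 9, 76.3% with 10 to 19 and 85.0% (81.4 to 88.0) with 20 or more, and at 500 bp all 447 of the last band were. For the 2095 insertions found in both pools at 20 bp, median support was 7 reads in the no-KD pool and 9 in the piwi-sKD pool, not corrected for depth. Spearman's rho of the reads was 0.766, across insertions, which are not independent replicates.

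Among well supported insertions, the share found in a fly differed between classes but its order depended on the match. At 20 bp it was 40.4% ± 8.09 for LTR, 30.9% ± 7.20 for non-LTR and 19.6% ± 4.57 for DNA insertions (SD, n = 12), and each pair differed in the same direction in 12 of 12 flies (exact paired permutation test, two-sided, adjusted p = 0.000488 over the 3 pairs). At 500 bp it was 52.2% ± 10.5 for LTR, 65.2% ± 9.15 for non-LTR and 63.2% ± 10.1 for DNA insertions, so that LTR insertions came last, lower than non-LTR by 13.0 points in 12 of 12 flies (exact adjusted p = 0.000732). No order of the classes is therefore given.

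**Figure D5:**
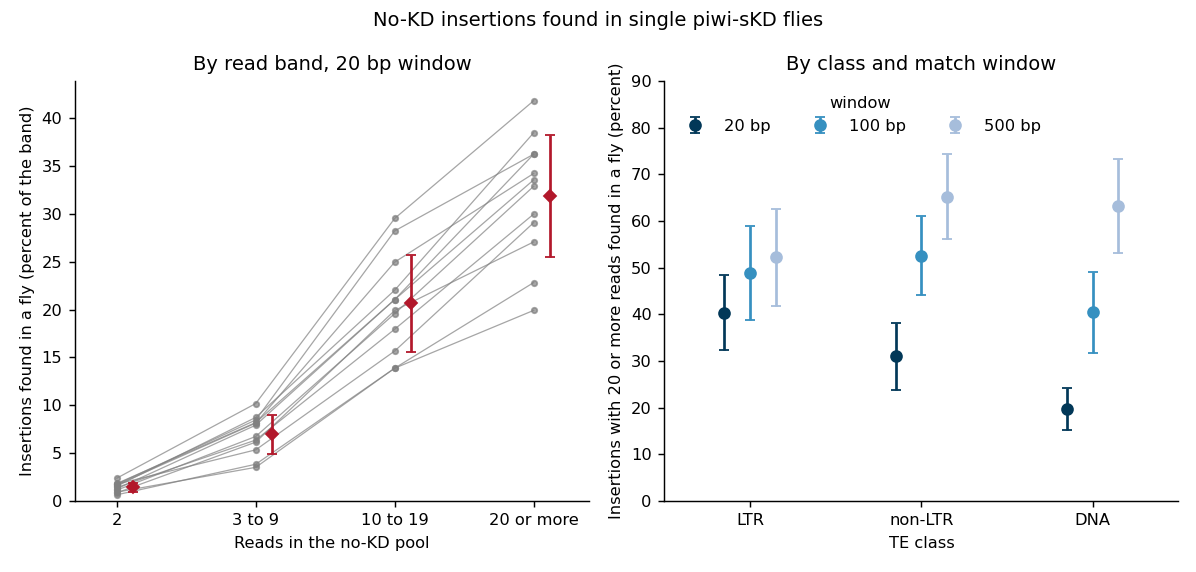
Left, percent of the no-KD insertions of each read band found in a fly within 20 bp, with 1 grey line per fly and the mean ± SD of 12 flies as diamonds. Right, the same share (mean ± SD) for insertions with 20 or more reads by class and match window; the lines at left climb in every fly, whereas at right LTR is highest at 20 bp (40.4%) and lowest at 500 bp (52.2%).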

How the data were processed

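Genomic DNA libraries were mapped by the authors to dm6 with BWA (0.7.5a-r405 for pools, 0.7.10-r789 for flies), and insertions absent from the reference were called with T-lex de novo by comparison with canonical TE ends. Each list gives position, family and support. For the flies and the piwi-sKD pool the authors deposited a count of reads per insertion. For the no-KD pool the authors deposited a scaled signal: 100% of its values were whole multiples of 1.23 (tolerance 0.001, lowest 2.46), and it was divided by 1.23 to give reads. The factor was read from the values. By the paper's methods the piwi-sKD pool had the higher coverage, and the factor matches the ratio of the coverages given there for the 2 pools. The scaled support thus allows for that coverage, and division by 1.23 takes the allowance out. Reads compared between the pools are therefore not corrected for coverage here. Whether coordinates count from 0 or 1 is not stated.

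Families were put into classes by hand. Found meant the same family within 20 bp. Proximal limits were round positions. Named families were the 12 most numerous, the 8 highest and 8 lowest well supported shares among families with at least 15 insertions, and ZAM, gtwin, Dm412, HMS-Beagle2 and gypsy. Named sites were the 3 most read per class on X, the autosomal arms and 4. Other sites of named families were chosen after their values were seen. Promoter windows were not used, because the gene table (RefSeq, the same release) has no strand. Members, bands and lists were chosen with earlier results of these data known. Fly tests were exact sign-flip permutations (4096 flips), Benjamini-Hochberg adjusted, and the code was tested on simulated data. Alternatives covered the match window, merging, the support limit, the scaled support, proximal limits and family minimums. Python 3.11.15, numpy 2.4.6, pandas 2.3.3, scipy 1.17.1 and matplotlib 3.10.9 were used. PCR reads without molecular identifiers are not independent molecules. Pools and flies were sequenced at different facilities.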

Additional observations from a re-analysis of the deposited data

How the results depend on the processing

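The share of insertions with 20 or more reads was 19.1% over loci of 500 bp, 12.8% on the scaled support as deposited and 24.3% with a limit of 10 reads. In the same order it was 21.8%, 13.2% and 25.1% for LTR, 16.5%, 12.1% and 23.1% for non-LTR, and 19.2%, 13.4% and 25.1% for DNA insertions. Families at 2 times the share of the list numbered 10 over loci and 3 with a limit of 10 reads, of which 5 and 2 were among the 6 named. Over loci 63 families were ranked. On X, the autosomal arms and 4 alone 6 families were called, with Max-element in place of pogo, and on the scaled support 5, without R1A1-element. Families at 0.5 times or less numbered 17 with a limit of 10 reads and 14 with a family minimum of 30 insertions. The distal share exceeded the proximal share by 21.4 points over loci, 9.97 on the scaled support and 18.3 with a limit of 10 reads, and by 8.44 points without R1A1-element and R2-element, a setting chosen after the data were seen.

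For well supported insertions in flies, LTR minus non-LTR was -3.67 points at 100 bp, -13.0 at 500 bp, -2.21 over loci and -9.64 over loci at 500 bp, the last chosen after the data were seen. LTR minus DNA was -11.0 at 500 bp, -4.86 over loci and -4.13 over loci at 500 bp. Non-LTR minus DNA was -2.66 over loci and 2.01 at 500 bp (exact permutation, adjusted p = 0.110). In each the cause was not tested. In the piwi-sKD pool, 2-read insertions were found at 5.49% with a window of 0 bp, 34.6% at 100 bp, 53.3% at 500 bp, 24.3% for any family and 16.9% over loci, and well supported ones at 45.9% at 0 bp, 96.9% at 100 bp, 100% at 500 bp and 96.6% over loci. Crowding was 18.7% within 100 bp and 53.8% within 2000 bp. The order of the 4 bands in flies kept its direction and its side of the threshold under every window, over loci and on X, the autosomal arms and 4 alone.

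No paired analysis was possible because the 3 groups have only replicate number 1 in common, with 1 library per pool. The fly tests paired values within a fly, not samples across groups. The number of insertions limits small families, where 0 well supported insertions allows a share of up to 12% at 25 insertions and 20% at 15.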
